A study of Mus musculus with 10 samples.

Results

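The osteoclast fusion and resorption genes followed here were 10 genes of the FPKM table, chosen by symbol from 22186 genes: the receptor genes Tnfrsf11a and Oscar, the transcription factor genes Nfatc1 and Mitf, the fusion genes Dcstamp and Ocstamp, the proton pump gene Atp6v0d2, the resorption enzyme genes Acp5 and Ctsk, and the integrin gene Itgb3. They were measured in RAW264.7 cells, an established mouse macrophage-like line labelled WT with tumour as its tissue, which is widely used as an osteoclast precursor. The medium group held 5 libraries of cells kept in minimum essential medium with serum and antibiotics, and the doxorubicin group held 5 libraries of cells kept for 24 h in the same medium with doxorubicin, an anthracycline drug that breaks DNA by trapping topoisomerase II. The labels gave the dose as 10 nM in the titles, 100 nM in the series design and a dilution that works out at 1000 nM, and they named a solvent, dimethyl sulfoxide, for the doxorubicin cultures only. The labels named no RANK ligand or other osteoclast-inducing agent in either group. All libraries came from 1 cell line. Since no label says that replicates were grown as separate cultures, the p-values cover just the variation among these 10 libraries, which may be technical.

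Osteoclasts are bone-resorbing cells that form when precursors of the monocyte and macrophage lineage fuse. RANK ligand binds the receptor RANK, and together with signals from immunoreceptors such as OSCAR it induces NFATc1, the master transcription factor of the lineage, which acts with MITF and AP-1 on the genes for cell fusion and bone breakdown. The mature cell seals off a patch of bone through an integrin, pumps protons into it through a vacuolar ATPase, and digests the matrix with cathepsin K and other enzymes.

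FPKM values, which scale fragments by library size and by the length of the transcript, summed to between 338293 and 356111 per library, and the read depth was unknown. The treatment check was Cdkn1a, a p53 target, at 42.5 to 54.4 FPKM in medium and 120 to 212 FPKM with doxorubicin. Medium 1 and doxorubicin 1 were unlike the remaining 8 libraries. Fth1, a ferritin gene, took 5.21% of all FPKM in medium 1 and 3.88% in doxorubicin 1, against 2.14% to 2.56% elsewhere. Results are therefore also given without them. Of 7 macrophage markers, 6 were expressed above 1 FPKM, with summed levels of 1106 to 1296 FPKM in medium and 1165 to 1412 FPKM with doxorubicin. Of these 6, Itgam and Lyz2 were called higher when libraries were compared within replicate numbers (the replicate block), and the part of this in the results below was not tested. Markers of lymphocytes summed to at most 0.120 FPKM in medium and 0.212 FPKM with doxorubicin (Cd3e and Cd3g were listed at 0 in every library), those of dendritic cells to 0.845 and 0.653, those of neutrophils to 1.74 and 1.39 (Ly6g and S100a9 listed at 0), and those of osteoblasts and stroma to 2.59 and 2.01 (Col1a2 and Sp7 listed at 0). In bulk samples, more cells of a kind and more RNA per cell cannot be told apart.

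With doxorubicin, 6 of the 8 members that could be tested lay higher in all 5 replicate numbers: Atp6v0d2, Acp5, Ocstamp, Dcstamp, Ctsk and Tnfrsf11a. Without regard to replicate numbers, however, 0 of these 8 passed the threshold (limma on log2(FPKM + 1), Benjamini-Hochberg adjusted p under 0.05 over 9869 genes), against 0.689% of all genes called higher and 0.223% called lower. At an unadjusted p under 0.05 there were 4 members, and 1757 of all 9869 genes. An exact permutation test with the same adjustment could call no gene, since its smallest adjusted p was 0.118. With the replicate number as a block, that is, comparing each doxorubicin library with the medium library of the same number, the same 6 members were called higher and 0 lower, against 7.81% and 13.7% of all genes. The labels state no such pairing. Numbers 2 and 3, and 4 and 5, were nearly as alike as equal numbers, so blocked p-values may be too small. Being higher in all 5 numbers was found for 13.2% of all genes tested, and being lower in all 5 for 23.1%. The median difference over the 8 members was 0.33 on the log2 scale, against -0.03 over all 9869 genes. Without both number 1 libraries, 4 members were called higher without the block (Acp5, Ctsk, Ocstamp and Atp6v0d2) and 0 lower, against 2.89% and 2.8% of all genes. Leaving them out of the blocked fit gave 6 higher and 1 lower (Mitf), against 10.3% and 18.5%. The values behind these calls are shown by library in the plot of the 8 tested members.

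**Figure D1:**
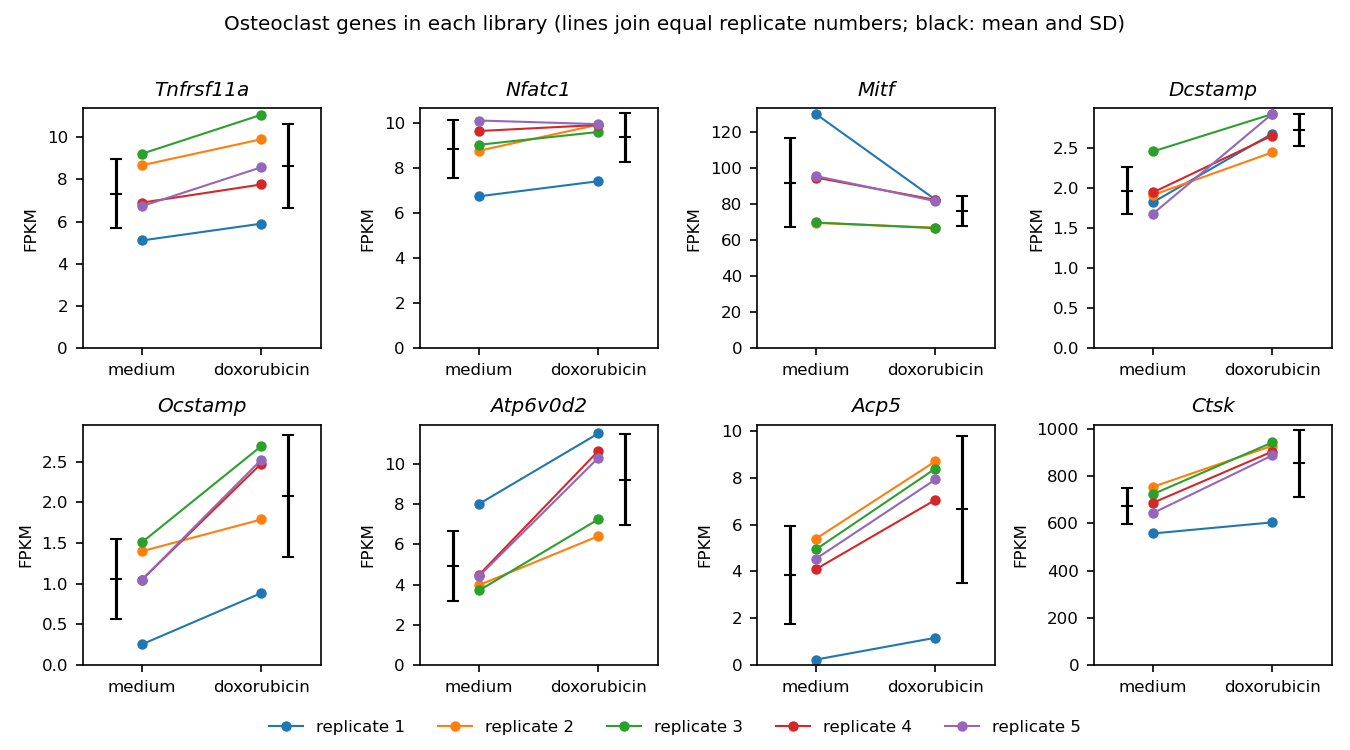
FPKM (linear axes from 0) of the 8 tested members in each library, with coloured lines joining medium and doxorubicin libraries of equal replicate number and black bars for the mean and SD of 5 libraries. Lines rise in all 5 numbers for Tnfrsf11a, Dcstamp, Ocstamp, Atp6v0d2, Acp5 and Ctsk and fall in all 5 for Mitf, and number 1 lies far below the others for Acp5.

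The members spanned a wide range of levels per transcript length. Ctsk averaged 764 FPKM over the 10 libraries and ranked 32 of 22186 genes, and Mitf averaged 83.8 FPKM, and each stood clear of the next member in every library. Nfatc1 (9.10 FPKM), Tnfrsf11a (7.98), Atp6v0d2 (7.08) and Acp5 (5.25) followed, and neighbours in this order, Dcstamp (2.35) after Acp5 included, overlapped in both groups. Ocstamp (1.56) lay below Dcstamp in all 10 libraries. Oscar and Itgb3, below the filter of a mean of 1 FPKM, were near 0.

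The receptor genes came first in the pathway and differed sharply in level. Tnfrsf11a encodes RANK, the receptor of RANK ligand. It stood at 5.11, 8.67, 9.21, 6.90 and 6.73 FPKM in medium libraries 1 to 5 and at 5.90, 9.90, 11.1, 7.76 and 8.57 FPKM with doxorubicin. The groups overlapped widely, since the level differed more between replicate numbers than between treatments, but each doxorubicin library lay above its medium counterpart. The log2 difference was 0.21 (SE 0.17, limma adjusted p = 0.559), and with the replicate block it passed (SE 0.05, adjusted p = 0.0234). Without the block it was 0.10 without medium 1, 0.12 without doxorubicin 3 and 0.32 without doxorubicin 1. That call was lost when number 2, 3, 4 or 5 was left out of the blocked fit (adjusted p = 0.0506, 0.0705, 0.0688 and 0.0995).

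Oscar, which encodes an immunoglobulin-like co-receptor that signals through the Fc receptor gamma chain, was listed at 0.0996, 0.101, 0, 0.0696 and 0.189 FPKM in medium 1 to 5 and at 0.0303, 0.0970, 0.0277, 0.203 and 0.140 FPKM with doxorubicin. No direction held across numbers, and it was not tested. Its adaptor gene was abundant: Fcer1g averaged 270.1 ± 23.2 FPKM and 257 ± 12.6 FPKM in the medium and doxorubicin groups (SD, n = 5; log2 difference -0.07, limma adjusted p = 0.658).

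Both transcription factor members were well expressed, and neither was called over all 10 libraries, with or without replicate number as a block. Nfatc1, the master regulator, was at 6.74, 8.76, 9.02, 9.63 and 10.1 FPKM in medium 1 to 5 and at 7.41, 9.91, 9.59, 9.90 and 9.94 FPKM with doxorubicin. The 2 ranges overlapped almost entirely, and number 1 was lowest in each group. The log2 difference was 0.07 (SE 0.11, limma adjusted p = 0.779; SE 0.05 and adjusted p = 0.302 with the block). Its sign turned without medium 1 (-0.00934).

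Mitf, which encodes a basic helix-loop-helix factor of the same gene family as TFE3 and TFEB, was the 1 tested member that lay lower with doxorubicin in all 5 numbers. Its levels were 129.6, 69.5, 69.7, 94.5 and 95.4 FPKM in medium 1 to 5 and 82.3, 66.9, 66.5, 82.2 and 81.5 FPKM with doxorubicin. Medium 1 was far above the rest, and numbers 2 and 3 were lowest in both groups. The log2 difference was -0.24 (SE 0.16, limma adjusted p = 0.472; 0.0720 with the block). Within numbers it was -0.65 in number 1 and between -0.22 and -0.05 in the others, and it was -0.10 without medium 1. It passed as lower with a block of 3 sets (number 1, numbers 2 and 3, numbers 4 and 5; adjusted p = 0.0308), and in the blocked fit that left out number 1 (-0.14, adjusted p = 0.0455). The table holds 1 value per gene, so the isoforms of Mitf, which start from different promoters, cannot be told apart.

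The fusion genes rose with the replicate block. Dcstamp and Ocstamp encode related membrane proteins that precursors need to fuse into multinucleated cells. Dcstamp was at 1.83, 1.92, 2.46, 1.95 and 1.68 FPKM in medium 1 to 5 and at 2.68, 2.45, 2.92, 2.66 and 2.93 FPKM with doxorubicin. The groups touched at a single point, where medium 3 lay just above doxorubicin 2. The log2 difference was 0.33 (SE 0.08, limma adjusted p = 0.0917; SE 0.07 and adjusted p = 0.0138 with the block). The blocked call was lost without number 4 (0.0543) or number 5 (0.0591), and without the block it was missed also when both number 1 libraries were left out (0.0623).

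Ocstamp was at 0.254, 1.40, 1.51, 1.05 and 1.05 FPKM in medium 1 to 5 and at 0.884, 1.79, 2.69, 2.48 and 2.52 FPKM with doxorubicin. Number 1 was lowest in both groups, and the other 4 doxorubicin libraries lay above every medium library. The mean was 1.97 times as high, and the log2(FPKM + 1) difference was 0.58 (SE 0.22, limma adjusted p = 0.211; SE 0.09 and adjusted p = 0.00524 with the block). At these low levels the added 1 shrinks the difference: with a pseudocount of 0.1 it was 0.99. Ocstamp stood at 13.9% of the Dcstamp level in medium 1 and 33.0% in doxorubicin 1, against 53.9% to 73.0% in the other medium libraries and 73.1% to 93.3% in the other doxorubicin libraries.

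Atp6v0d2 had the largest difference of the 8 on the log2(FPKM + 1) scale, though with a pseudocount of 0.1 it was 0.91, below the 0.99 of Ocstamp and the 0.98 of Acp5. It encodes the d2 form of a subunit of the vacuolar proton pump, a form enriched in osteoclasts and macrophages and needed for efficient fusion. Its levels were 8.02, 3.98, 3.71, 4.49 and 4.43 FPKM in medium 1 to 5 and 11.5, 6.42, 7.26, 10.7 and 10.3 FPKM with doxorubicin. Here number 1 was the highest in each group, and medium 1 lay above doxorubicin 2 and 3. Without number 1, the 4 doxorubicin libraries all lay above the 4 medium libraries. The mean rose 1.87-fold, with a log2 difference of 0.80 (SE 0.20, limma adjusted p = 0.0971; SE 0.10 and adjusted p = 0.00251 with the block). Within numbers 1 to 5 the FPKM ratio was 1.44, 1.61, 1.95, 2.37 and 2.33. It was the 1 member called in the fit without the block that left out medium 1 alone (0.96, adjusted p = 0.0148).

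The d1 form, encoded by Atp6v0d1 and found in most cell types, was more abundant and was not called (59.6 ± 15.6 and 65.3 ± 14.5 FPKM, SD, n = 5; log2 difference 0.14, limma adjusted p = 0.733; 0.0809 with the block), except in the blocked fit without number 1 (0.16, limma adjusted p = 0.0333). The d2 level as a percentage of the d1 level was 9.20, 7.86, 7.33, 7.97 and 8.29 in medium 1 to 5 and 12.8, 12.2, 12.3, 17.8 and 16.0 with doxorubicin. The percentages did not overlap between groups, medium 1 was the highest of its group, and doxorubicin 1 lay inside the range of the other 4. The mean was 8.13% ± 0.691 in medium and 14.2% ± 2.55 with doxorubicin (SD, n = 5; two-sided exact permutation test p = 0.00794, the smallest that 5 against 5 allows). It was 1 of 3 such ratios computed after the values were seen (adjusted p = 0.0238). That adjustment does not cover the choice of the ratio, so its p-value is a description only. How often ratios of other genes keep the groups apart was not computed. Ocstamp to Dcstamp and Ctsk to Ctsb did not pass (exact permutation p = 0.317 and 0.468).

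**Figure D2:**
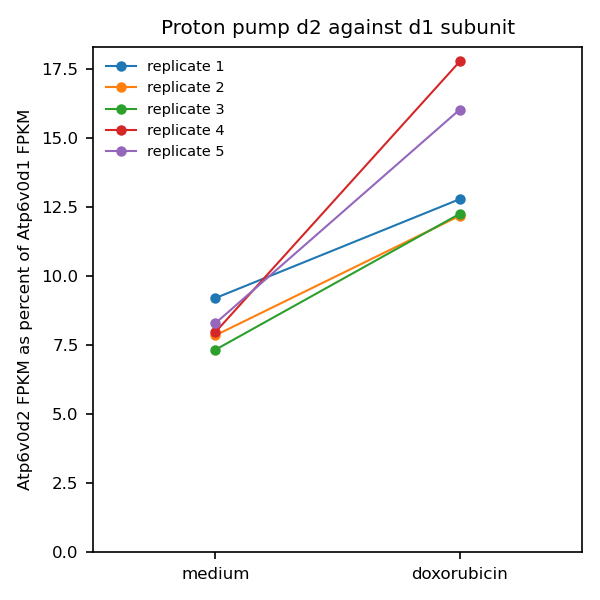
Atp6v0d2 FPKM as a percentage of Atp6v0d1 FPKM in each of the 10 libraries (linear axis from 0), with lines joining equal replicate numbers. All 5 doxorubicin libraries lie at 12.2% or above and all 5 medium libraries at 9.20% or below, with numbers 4 and 5 highest under doxorubicin.

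The resorption enzymes differed widely in level, and both rose with the replicate block. Ctsk encodes cathepsin K, the collagen-degrading cysteine protease of the osteoclast. It was at 557, 756, 725, 688 and 644 FPKM in medium 1 to 5 and at 604.5, 929, 943, 905 and 889 FPKM with doxorubicin. Doxorubicin 1 lay below medium 2 to 5, and the other 4 doxorubicin libraries lay above every medium library. The means were 674 ± 77.2 and 854 ± 141 FPKM (SD, n = 5), a log2 difference of 0.33 (SE 0.13, limma adjusted p = 0.220; SE 0.05 and adjusted p = 0.00670 with the block). With quantile normalization in the blocked fit the difference was 0.18 and the call was lost (adjusted p = 0.0807).

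Acp5 encodes tartrate-resistant acid phosphatase, the classical histochemical marker of osteoclasts. It was at 0.230, 5.40, 4.95, 4.10 and 4.54 FPKM in medium 1 to 5 and at 1.16, 8.71, 8.39, 7.06 and 7.93 FPKM with doxorubicin. Number 1 was nearly without the transcript in medium and low with doxorubicin, and the other 4 doxorubicin libraries lay above every medium library. The log2 difference was 0.68, with an SE of 0.52 (limma adjusted p = 0.532) that fell to an SE of 0.05 (adjusted p = 4.60e-04) with the block. Without the block it was 0.24 without medium 1 and 1.10 without doxorubicin 1, but 0.65 with both number 1 libraries left out. Within numbers it lay between 0.60 and 0.81 on the log2(FPKM + 1) scale, but the FPKM ratio was 5.05 in number 1 and 1.61 to 1.74 in the others. With a pseudocount of 0.1 the blocked difference was 0.98 and its SE 0.17 (adjusted p = 0.00903). Acp5 was called in all 10 blocked fits run. Without the block it was called when both number 1 libraries were left out (0.65, limma adjusted p = 0.00499) and with sample quality weights (0.68, limma adjusted p = 0.0105).

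The stretches upstream of Ctsk and Acp5 are shown because these enzyme genes are classical targets of the NFATc1 and MITF factors described above. They come from the RefSeq promoter table of build GRCm38.p6, not the GRCm39 build of the FPKM values, which covered 5 of the 10 members as used here (Acp5, Ctsk, Mitf, Oscar and Tnfrsf11a; Nfatc1, Dcstamp, Ocstamp, Atp6v0d2 and Itgb3 are not shown). Ctsk is shown for chr3:95498960-95499209 on the plus strand, the 250 bases before its start. Acp5 has 3 starts in that table, and the most downstream is shown for chr9:22130609-22130848 on the minus strand, leaving out 10 bases next to the start that the GENCODE annotation places in an untranslated exon of Acp5. Each is written 5′ to 3′, and capitals mark matches on either strand to GGAAA, the NFAT core, or to TCATGTG, a form of the MITF M-box.
Ctsk: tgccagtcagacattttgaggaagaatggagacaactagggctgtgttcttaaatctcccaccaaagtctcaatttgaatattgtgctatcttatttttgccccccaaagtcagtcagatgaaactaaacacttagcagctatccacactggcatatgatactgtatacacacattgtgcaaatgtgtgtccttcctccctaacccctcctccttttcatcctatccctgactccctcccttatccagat
Acp5: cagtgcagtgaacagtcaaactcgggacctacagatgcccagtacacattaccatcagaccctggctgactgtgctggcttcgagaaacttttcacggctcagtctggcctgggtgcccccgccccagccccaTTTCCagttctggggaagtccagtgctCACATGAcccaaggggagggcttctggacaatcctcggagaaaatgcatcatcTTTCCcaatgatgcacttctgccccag
The Ctsk stretch held no match to these or to TGANTCA (AP-1), TCACGTG (M-box) or GAGGAAGT (PU.1), which says only that these letters are not in this window. The Acp5 stretch held GGAAA 2 times, as TTTCC, and TCATGTG once, as CACATGA, 90 bases before the start. The windows of the other 2 Acp5 starts held GGAAA once each and neither form of the M-box. The 5 motifs share no bases in these 2 windows. Of 32851 windows of 250 bases before annotated starts, 55.6% held GGAAA and 3.25% held TCATGTG. A match is a description of the sequence, and the FPKM values do not show which start was used.

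Itgb3, the integrin beta 3 gene whose product pairs with alpha v to form the osteoclast vitronectin receptor, was listed at 0.105, 0.0171, 0.00737, 0.00764 and 0.0234 FPKM in medium 1 to 5 and at 0.0894, 0.00713, 0.0133, 0.0103 and 0.0363 FPKM with doxorubicin. It was near 0 throughout, highest in number 1, and was not tested. Its partner Itgav was expressed and rose with the replicate block (22.2 ± 2.29 and 28.8 ± 3.22 FPKM, SD, n = 5; log2 difference 0.36, limma adjusted p = 0.105, and 0.00229 with the block).

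Other markers of mature osteoclasts were scarce. Calcr, the calcitonin receptor gene, was listed at 0 in 9 of 10 libraries and at 0.0132 FPKM in doxorubicin 3, and Car2, the carbonic anhydrase gene that supplies protons, was listed at 0 in all. Mmp9, a matrix metalloproteinase gene, was at 2.81 FPKM in medium 1 and 3.25 in doxorubicin 1 and between 0.258 and 0.586 in the other 8 libraries. Of the genes that mark osteoclasts, Ctsk, Acp5, the fusion genes and Atp6v0d2 were thus expressed in these cells, and Oscar, Itgb3, Calcr and Car2 were at or near 0.

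**Figure D3:**
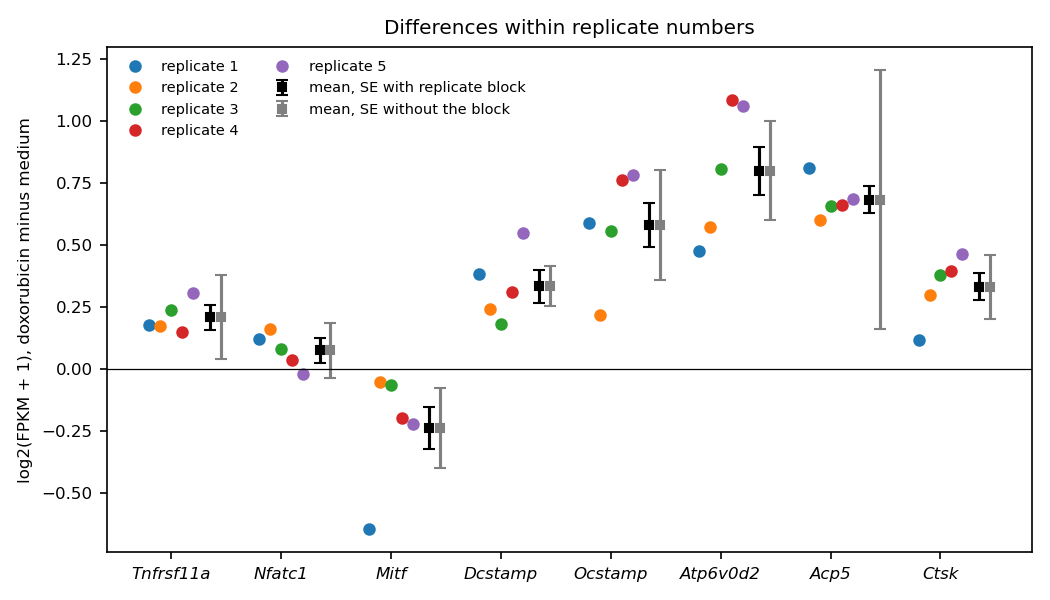
Difference of log2(FPKM + 1), doxorubicin minus medium, within each replicate number (coloured points), with the mean and its limma SE with the replicate block (black) and without it (grey). Acp5 differs by 0.60 to 0.81 in every number on this scale, where the added 1 shrinks the 5.05-fold ratio of number 1, and Mitf lies below 0 in all 5 numbers.

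Differences within numbers were not of 1 size. For Atp6v0d2 they were 0.47, 0.57, 0.81, 1.09 and 1.06 in numbers 1 to 5, and for Ocstamp 0.59, 0.22, 0.56, 0.76 and 0.78, so numbers 4 and 5 showed the largest values for both. Ctsk differed by 0.12 in number 1 and by 0.30 to 0.46 in the others, and Dcstamp by 0.18 to 0.55. Whether the size differed between numbers was not tested. The expression profiles nearest to each member over the 10 libraries, by root-mean-square distance of centred log2(FPKM + 1), were those of Clec4a2 (0.21), Oas2 (0.31) and Irf7 (0.34) for Acp5, of Abcb4, Herc3 and Colec12 (0.07 to 0.08) for Ctsk, of Ifi204, Trim12c and Cav1 (0.14 each) for Ocstamp, of Nlrp1b, Ids and Epm2aip1 (0.09 each) for Dcstamp and of Rhod, Mgmt and Psrc1 (0.15 to 0.18) for Atp6v0d2. Predicted gene models were left out of this ranking. Abcb4 averaged 1.02 FPKM, a level where the added 1 shrinks differences. Its mean FPKM was 1.72 times as high with doxorubicin, against 1.27 times for Ctsk. All 3 genes nearest to Acp5 were lowest in number 1 in both groups. With the block Clec4a2 and Irf7 were called higher (limma adjusted p = 0.00975 and 0.0233), and Oas2 was not (0.138). For comparison, the root-mean-square deviation of the member itself was 0.93 for Acp5, 0.26 for Ctsk, 0.46 for Ocstamp, 0.19 for Dcstamp and 0.51 for Atp6v0d2. The nearest 3 were Cst3, Taldo1 and Actn1 for Tnfrsf11a (0.07 to 0.08, member 0.29), Il6st, Ccdc137 and Rnf44 for Nfatc1 (0.05 each, member 0.17) and Sdccag8, Cdk5rap2 and Zbtb10 for Mitf (0.05 to 0.06, member 0.28).

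Of 70 other genes of the osteoclast pathway, 61 were tested, and 1 was called higher and 0 lower without the block (68 and 22 of all 9869 genes). With the block 12 were higher and 9 lower (17 and 7 after upper quartile scaling), and the median difference over the 61 was 0.06. Of all genes, 7.81% were higher and 13.7% lower with the block, so the count of lower pathway genes was near that of all genes, and the counts of the short lists that follow are descriptions to be read against these shares. The 1 call made without the block was Atp6ap1, which encodes an accessory subunit of the proton pump. It was at 47.2 to 53.7 FPKM in medium and 55.3 to 70.2 FPKM with doxorubicin, with no overlap (higher without overlap for 2.73% of all genes), and its log2 difference was 0.41 (SE 0.07, limma adjusted p = 0.0354; 0.00525 with the block). That call was lost in 8 of the 10 fits that left out 1 library, all but those without medium 1 or doxorubicin 3.

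Among 11 tested acid secretion genes, 4 were higher and 0 lower with the block. Beside Atp6ap1 they included Tcirg1, the a3 subunit gene of the osteoclast proton pump (80.4 ± 10.3 and 92.8 ± 12.9 FPKM, SD, n = 5; log2 difference 0.20, limma adjusted p = 0.0231 with the block), and Atp6v1b2 (0.18, adjusted p = 0.0236 with the block). Of 3 tested protease genes, Ctsd, the cathepsin D gene, was higher with the block (0.22, adjusted p = 0.00871), while Ctsb differed by 0.12 (0.0837, and called at 0.15 without number 1, 0.0225) and Ctsl by 0.10 (0.296). Of 12 adhesion and sealing zone genes, Itgav and the osteopontin gene Spp1 were higher with the block (Spp1 313 ± 51.0 and 431 ± 95.8 FPKM, SD, n = 5; 0.45, limma adjusted p = 0.0158) and 0 lower, and the focal adhesion gene Vcl differed by 0.21 (0.0585).

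Of 8 other cell fusion genes, 2 were higher and 1 lower with the block. The tetraspanin genes Cd9 (354 ± 28.4 and 421 ± 46.2 FPKM, SD, n = 5; 0.25, limma adjusted p = 0.0153) and Cd81 (0.27, 0.0133) were higher. Cd47, whose product is the ligand of SIRP alpha, was lower (61.5 ± 9.81 and 47.7 ± 2.90 FPKM, SD, n = 5; -0.35, limma adjusted p = 0.0218), and its 5 doxorubicin libraries lay below the 5 medium libraries, as for 3.97% of all genes.

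Over all genes the block called 1356 lower and 771 higher (1150 and 1021 after upper quartile scaling), and the lists of transcription factors also held more lower than higher genes. Of 9 tested transcription factors that promote it, 0 were higher and 4 lower with the block: Jdp2 (28.0 ± 8.13 and 18.6 ± 4.81 FPKM, SD, n = 5; -0.55, limma adjusted p = 0.00795), Junb (-0.29, 0.0238), the NF-kB genes Nfkb1 (-0.22, 0.0381) and Relb (-0.37, 0.0385). Fos, whose product is a subunit of AP-1, was at 9.38 ± 3.596 and 13.1 ± 3.09 FPKM (0.52, limma adjusted p = 0.386, and 0.0541 with the block). The Fos difference was 1.40 in number 1 and 0.08 to 0.48 in the others. Fos was called higher with the block of 3 sets (adjusted p = 0.0234) and in the blocked fit without number 1 (0.30, adjusted p = 0.0143). Of 5 that restrain it, 1 was higher, Id2 (0.33, limma adjusted p = 0.0489), and 3 lower with the block: Rbpj (-0.47, limma adjusted p = 0.00982), Bcl6 (-0.49, 0.0178) and Irf8 (-0.37, 0.0344). Irf8 was at 41.8 FPKM in medium 1 and 22.1 in doxorubicin 1, against 8.70 to 13.6 in the other 8 libraries, and its difference was -0.25 without number 1. Id2 differed by -0.17 in number 1 and by 0.34 to 0.57 in the others. Without number 1 the Id2 difference was 0.46 (limma adjusted p = 0.0156, and 8.69e-04 with the block).

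Of 12 tested genes for receptors and signalling, 2 were higher, the kinase genes Src (0.26, limma adjusted p = 0.0160 with the block) and Map3k7 (0.20, 0.0440), and 1 was lower, the adaptor gene Gab2 (-0.44, 0.0460; -0.27 without number 1). Among ligands, Tnfsf11, the RANK ligand gene, was listed at 0 in every library, and Tnfrsf11b, the gene of its decoy receptor osteoprotegerin, was listed at 0 in all medium libraries and at no more than 0.0210 FPKM with doxorubicin. Csf1, the macrophage colony-stimulating factor gene, was at 3.97 ± 1.38 and 4.56 ± 2.005 FPKM (SD, n = 5; 0.14, limma adjusted p = 0.832, and 0.323 with the block), and its sign turned without doxorubicin 1.

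**Figure D4:**
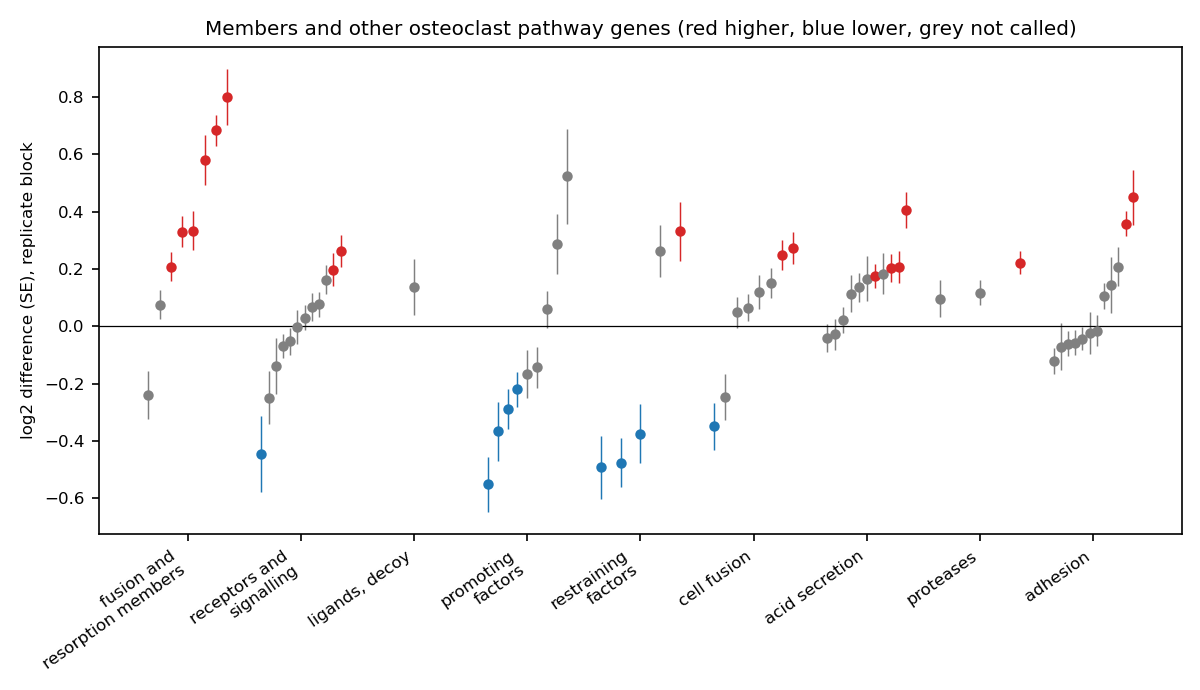
Log2 difference (doxorubicin minus medium, log2(FPKM + 1), with its SE) from the fit with the replicate block for the 8 tested members and 61 other osteoclast pathway genes by list. Red points were called higher, blue lower and grey neither at an adjusted p of 0.05. The members hold 6 red points and 0 blue, and the 2 lists of transcription factors hold 7 blue points and 1 red.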

How the data were processed

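The deposited values were FPKM, 1 column per library, computed by the authors; per the submitters' processing notes they rest on GRCm39. Aligner, quantifier, annotation and filters are not given in the sources used here. Library sizes in reads were unknown, so no counting intervals were given. Columns were matched to samples through the labels' library names. The 9869 of 22186 genes whose mean over all libraries reached 1 FPKM were analysed as log2(FPKM + 1) with limma 3.58.1 in R 4.3.3 (group as the only term, mean-variance trend, Benjamini-Hochberg over all genes tested, threshold 0.05). Fold differences on this scale understate those of low genes. The fit was tested on simulated data. For the blocked fit, the simulated effects of the 5 numbers were independent, so that test does not cover numbers that are alike. The titles number the replicates of each group from 1 to 5, and deviations of same-numbered libraries from their group means correlated at 0.79, 0.70, 0.67, 0.52 and 0.55. Since each was above 0.1, a fit blocked on replicate number stands beside the first. Numbers 2 with 3 (0.69 and 0.59) and 4 with 5 (0.51 in both directions) correlated about as closely, so the 5 numbers may not be 5 independent pairs, and blocked p-values would then be too small. The members, gene lists and tests were chosen with earlier results of these data known. Genes outside the members were named by a rule (the 3 smallest blocked adjusted p per list, a few by name, and the 3 nearest profiles); Car2, Fcer1g, Itgam, Lyz2, Relb and Id2 were named after their values were seen.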

Additional observations from a re-analysis of the deposited data

Results flagged for a closer look

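Of 20 groups of 5 libraries (10 members in 2 groups), 6 held a library far from the other 4 by Dixon's ratio (critical value 0.710). For a single group chance gives about 1 in 20, but the 20 groups share the same 10 libraries and are not independent. The share over all genes was not computed, so the count is not a result about the members. All 6 were libraries of replicate number 1. Low values were those of Acp5 in medium 1 (0.230 FPKM, the others 4.10 to 5.40) and doxorubicin 1 (1.16, the others 7.06 to 8.71), Ctsk in doxorubicin 1 (604.5, the others 889 to 943) and Nfatc1 in doxorubicin 1 (7.41, the others 9.59 to 9.94). High values were those of Atp6v0d2 in medium 1 (8.02, the others 3.71 to 4.49) and Itgb3 in medium 1 (0.105, the others 0.00737 to 0.0234, all near 0). Number 1 was thus low for some osteoclast genes and high for others, in both groups.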

How the results depend on the processing

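The count of members called higher, 0 without the block, was 6 with the replicate block, 6 with a block of 3 sets of numbers, 4 without both number 1 libraries and 6 without them with the block, and 6 with sample quality weights. Alternatives added after seeing the data gave, with the block, 6 with a pseudocount of 0.1, 6 with upper quartile scaling and 5 with quantile normalization. It ranged from 0 to 1 with 1 library left out, and from 4 to 5 with number 2, 3, 4 or 5 left out of the blocked fit. The count called lower was 1 (Mitf) with 3 sets and 1 without number 1 with the block, and 0 in the other fits. Pathway genes called higher (1) and lower (0) became 12 and 9 with the replicate block, 19 and 12 with 3 sets, 7 and 0 without number 1, 20 and 11 without number 1 with the block, 15 and 14 with quality weights, and 0 higher with quantile normalization or the exact permutation test. With the block they were 12 and 9 at a pseudocount of 0.1, 17 and 7 with upper quartile scaling and 11 and 6 with quantile normalization, with 1 library left out they ranged from 0 to 1 higher and were 0 lower, and with number 2, 3, 4 or 5 left out of the blocked fit they ranged from 3 to 11 higher and from 2 to 7 lower. Over all genes the block called 771 higher and 1356 lower, 3 sets 1205 and 1963, and quality weights 1379 and 2302. Without number 1 the counts were 284 and 275, and 1008 and 1815 with the block. The block called 761 and 1359 at a pseudocount of 0.1, 1021 and 1150 with upper quartile scaling and 916 and 961 with quantile normalization. With 1 library left out, 15 to 136 were higher and 0 to 90 lower. With number 2, 3, 4 or 5 left out of the blocked fit, 253 to 723 were higher and 362 to 869 lower. The counts of members and pathway genes are descriptions to be read against these. Of the members' differences, Nfatc1 alone changed sign, without medium 1 (-0.00934, against up to 0.148 with another library left out), and the other 7 kept their direction in every alternative that tested them. Among the other named genes, Csf1 changed sign with quality weights (-0.0735) and without doxorubicin 1 (-0.0343, against up to 0.274 with another left out), and Ctsl with quality weights (-0.0128). The cause of these changes was not tested. The median member difference stayed between 0.25 and 0.40. Low levels limit Oscar and Itgb3, which were tested only with no filter and not called.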
